A study of Mus musculus with 11 samples.

Results

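A set of 8 p53 target genes was followed in mouse CD4 T cells transduced with WT FoxP3, with either of 2 FoxP3 mutants, or with the vector alone. The members are Cdkn1a, Mdm2, Ccng1, Sesn2, Trp53inp1, Phlda3, Eda2r and Zmat3, and every probe set annotated with exactly 1 of these symbols was taken, which gave 15 of the 34945 probe sets, and 8 of the 18193 genes, that were tested. The starting cells were naive CD4 T cells (CD25-, CD45RB high) from BALB/cA lymph nodes and spleen. Stimulation was by anti-CD3e at 0.5 µg/ml together with T-depleted spleen cells given 20 Gy, in IL-2 at 10 ng/ml, and retrovirus was added by spin infection after 24 h. The groups were R397W FoxP3/MIGR1 (2 arrays), A384T FoxP3/MIGR1 (3), WT FoxP3/MIGR1 (3) and the MIGR1 vector without FoxP3, called mock (3); the FoxP3 was that of mouse. Cells of all 4 groups were sorted as CD4+ with high GFP on day 7, so every group was activated, grown in IL-2, infected and selected for vector expression. FoxP3 was therefore expressed from a retrovirus in conventional T cells and not from its own locus. The sources do not say which arrays came from separate cultures or animals, so the p-values rest on a spread between arrays that may be technical.

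The transcription factor p53 is stabilised by DNA damage and other stress and switches on genes that arrest the cell cycle, repair DNA, limit growth or kill the cell. Mdm2 marks p53 for degradation and is itself induced by p53, which closes a feedback loop. Several targets also answer to other regulators: Cdkn1a, which encodes the cyclin-dependent kinase inhibitor p21, can be induced in T cells without p53, and Sesn2 responds to amino acid and endoplasmic reticulum stress through ATF4. FoxP3 is the forkhead factor that specifies regulatory T cells, and A384T and R397W are substitutions in its DNA-binding forkhead domain that are known from the autoimmune disease IPEX.

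The promoters of the members that RefSeq tables (GRCm38.p6) list were read from 250 bases before to 50 bases after the transcript start, to show which of them hold a p53 response element in that window. They covered 6 of the 8 genes in 7 windows, with 2 starts for Cdkn1a that lie 2790 bases apart. Shown are the window at the upstream start of Cdkn1a and that of Ccng1, where the 20-base p53 response element was found with at most 1 mismatch (capitals), and that of Sesn2, a gene with higher values on the WT arrays and no match in its window.
Cdkn1a, upstream start, chr17:29090729-29091028, plus strand: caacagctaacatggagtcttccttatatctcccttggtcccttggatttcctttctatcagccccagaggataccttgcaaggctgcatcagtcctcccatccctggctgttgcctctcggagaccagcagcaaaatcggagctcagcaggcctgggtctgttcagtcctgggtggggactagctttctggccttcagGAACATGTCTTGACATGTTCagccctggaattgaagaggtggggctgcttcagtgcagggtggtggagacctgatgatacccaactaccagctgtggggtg
Ccng1, chr11:40755237-40755536, minus strand: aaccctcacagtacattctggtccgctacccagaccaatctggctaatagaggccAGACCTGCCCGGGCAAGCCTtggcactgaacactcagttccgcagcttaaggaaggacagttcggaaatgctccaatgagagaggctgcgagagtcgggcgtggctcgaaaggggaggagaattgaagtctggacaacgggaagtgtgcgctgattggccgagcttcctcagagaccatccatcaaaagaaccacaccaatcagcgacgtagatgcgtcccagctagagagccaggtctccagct
Sesn2, chr4:132510407-132510706, minus strand: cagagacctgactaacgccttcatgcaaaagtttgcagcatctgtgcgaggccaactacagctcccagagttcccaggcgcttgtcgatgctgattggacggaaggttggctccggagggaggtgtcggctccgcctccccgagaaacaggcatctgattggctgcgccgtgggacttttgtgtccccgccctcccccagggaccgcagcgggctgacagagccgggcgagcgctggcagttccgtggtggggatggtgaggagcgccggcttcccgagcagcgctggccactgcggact
The element was searched as a pair of directly adjacent decamers, a pattern that reads the same on both strands. Allowing 1 mismatch, it was found in 29 of 32851 promoter windows of all genes (0.0883%), and in 2 of the 7 windows of these genes. In Cdkn1a the match began 51 bases before the upstream start, and in Ccng1 195 bases before its start. A single decamer without mismatch was in 3 of the 7 windows, against 8.36% of all windows. They were those of Cdkn1a at its upstream start, Ccng1 and Mdm2. The window at the other Cdkn1a start held neither the element nor a single decamer. A match describes letters in the window and not binding. Elements outside the window, and pairs of decamers with bases between them, were not searched.

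All values below are on the log2 scale, centred at each probe set so that the mock median is 0. Groups can therefore be compared at a probe set, but levels are lost and probe sets cannot be ranked by them. Array medians over all probe sets lay between -0.0163 and 0.0022. The Foxp3 probe set was at 0.04 ± 0.15 in WT over mock (SE, limma adjusted p = 0.972). It does not check the labels, because the position of its probes relative to the transduced FoxP3 is not known here. Trp53 itself is not analysed here. At 1 probe set (1439569_at), the Treg gene Gpr83 lay between -0.20 and 0.13 on the R397W arrays, 5.45 and 6.30 on the A384T arrays, 5.90 and 6.46 on the WT arrays and -0.02 and 0.02 on the mock arrays. Levels of CD4 T cell markers cannot be read from centred values. Of 8 measured T cell identity genes, Cd2 was called higher and Cd5 and Zap70 lower in WT over mock, where 2.54% of all genes were called higher and 2.19% lower. With the array number added to the fit, Cd4 was called lower too (-0.40, adjusted p = 0.0177, and 0.431 without it), where 5.78% of all genes were.

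**Figure D1:**
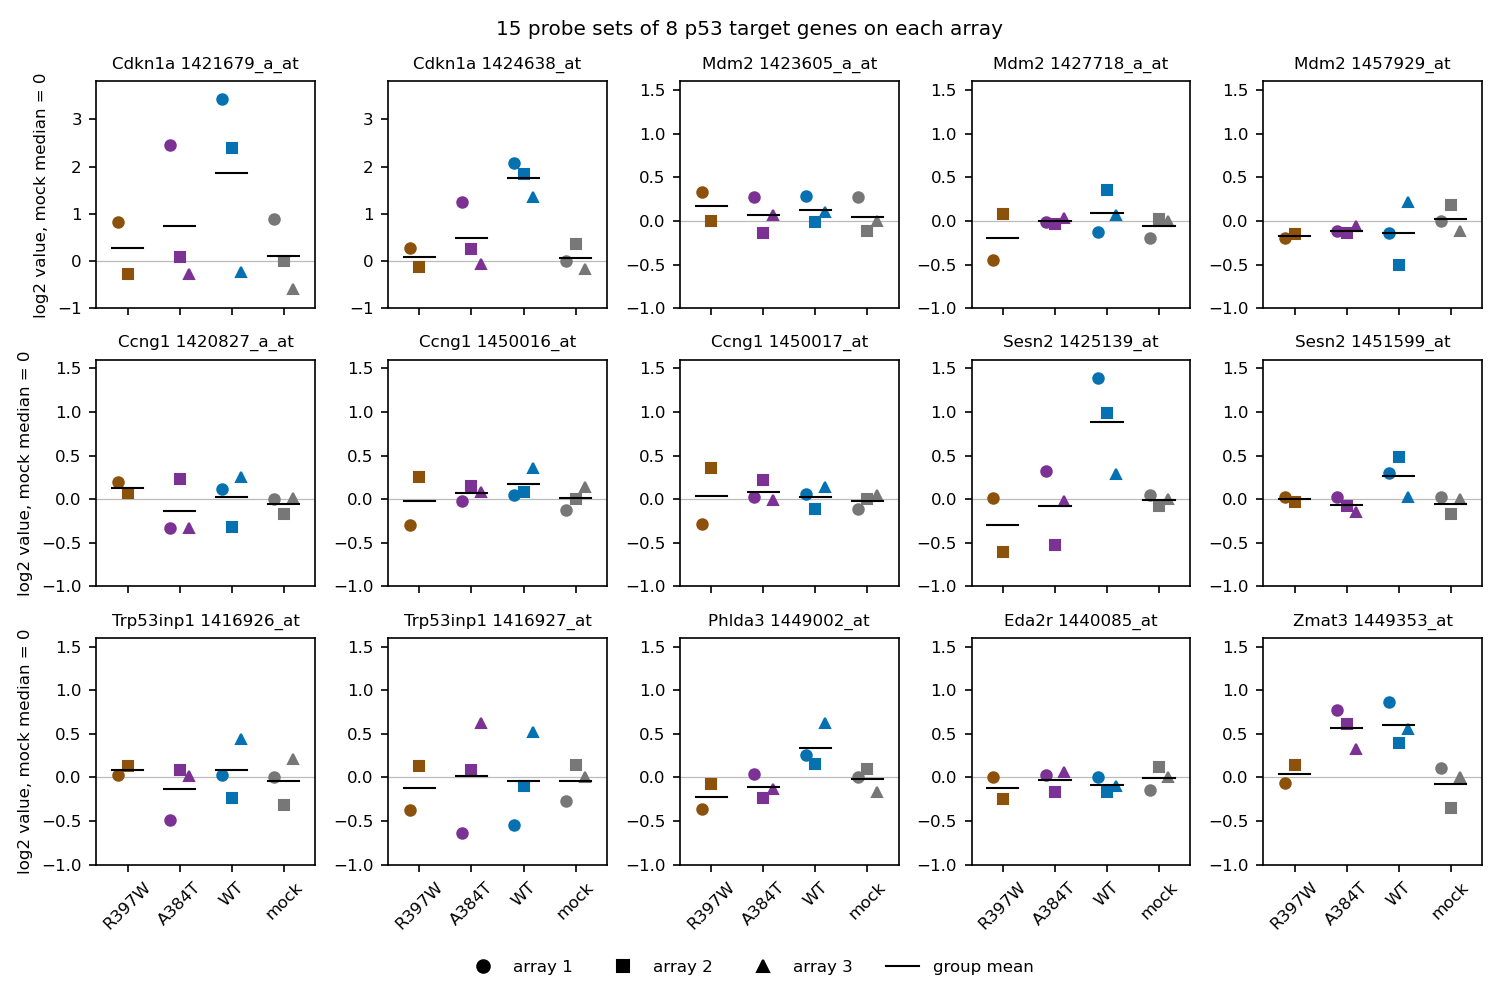
Log2 value on each array (vertical axis, median of the mock arrays = 0; the 2 Cdkn1a panels have a wider scale) for the 15 probe sets, by group from R397W to mock; symbols give the array number and lines the group mean. The WT arrays stand above the mock arrays at Cdkn1a 1424638_at, both Sesn2 probe sets, Phlda3 and Zmat3, and the A384T arrays only at Zmat3.

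WT FoxP3 was first set against mock. Of the 15 probe sets, 1 rose and 0 fell (limma, adjusted p under 0.05 over 34945 probe sets), where 3.21% of all probe sets were called in either direction and 1.81% were called higher. The one that rose was Cdkn1a 1424638_at, which was 3.24-fold higher with WT FoxP3. Zmat3, Sesn2 and Phlda3 had higher values on every WT array than on any mock array without passing the test. Mdm2, Ccng1, Trp53inp1 and Eda2r showed no difference that passed it. At an unadjusted p under 0.05, 5 of the 15 were higher, against 6.37% of all probe sets. In all, 5 of 15 probe sets had WT arrays wholly above the mock arrays and 0 wholly below, against 8.17% and 8.07% of all probe sets. When the array number entered the fit as a block, 4 of the 15 were called, all higher, against 4.64% of all probe sets; they were both Cdkn1a probe sets, Sesn2 1425139_at and Zmat3. The median difference over the 15 was 0.16, against -0.01 over all probe sets. RNA was measured in bulk, so more cells that express a gene and more RNA per cell cannot be told apart.

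Cdkn1a, whose product p21 binds cyclin-dependent kinases and halts the cycle, was read by 2 probe sets. At 1424638_at it was 0.28 and -0.12 on R397W arrays 1 and 2, 1.24, 0.25 and -0.06 on A384T arrays 1 to 3, 2.08, 1.84 and 1.35 on WT arrays 1 to 3, and 0, 0.35 and -0.16 on mock arrays 1 to 3. All WT arrays were above all arrays of the other groups, and A384T array 1 stood apart from the other A384T arrays. The difference of WT from mock was 1.69 ± 0.31 (SE; limma adjusted p = 0.0154, and 0.00042 blocked, that is, with the array number added to the fit). Between arrays of the same number it was 2.08, 1.49 and 1.51. Without any 1 of mock 1, mock 3, WT 1 or WT 2, the difference was 1.66, 1.58, 1.53 or 1.65, at adjusted p = 0.056, 0.0675, 0.0673 or 0.067, so that the call then fell away while the value moved little. With the mean of both Cdkn1a probe sets, in a fit of 1 value per gene, WT over mock was 1.73 ± 0.60 and was not called (adjusted p = 0.169).

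The other Cdkn1a probe set, 1421679_a_at, was among the most variable on the array (SD over all arrays 1.37, at the 99.8th percentile). It was 0.82 and -0.27 on the R397W arrays, 2.46, 0.08 and -0.28 on the A384T arrays, 3.43, 2.39 and -0.23 on the WT arrays, and 0.89, 0 and -0.59 on the mock arrays. Array 1 was the highest of its group in all 4 groups, and the WT and mock arrays overlapped, since WT array 3 lay below 2 of the mock arrays. The difference of WT from mock was 1.76 ± 0.93 (adjusted p = 0.517), and 1.76 ± 0.39 when blocked (adjusted p = 0.018). Without the block it was 0.98 without WT 1 and 2.81 without WT 3, the lowest and highest values with 1 array left out, at adjusted p = 0.831 and 0.132. Between arrays of the same number it was 2.55, 2.39 and 0.35. The 2 probe sets thus gave like means but differed at array 3, where 1424638_at was 1.51 higher in WT than in mock.

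**Figure D2:**
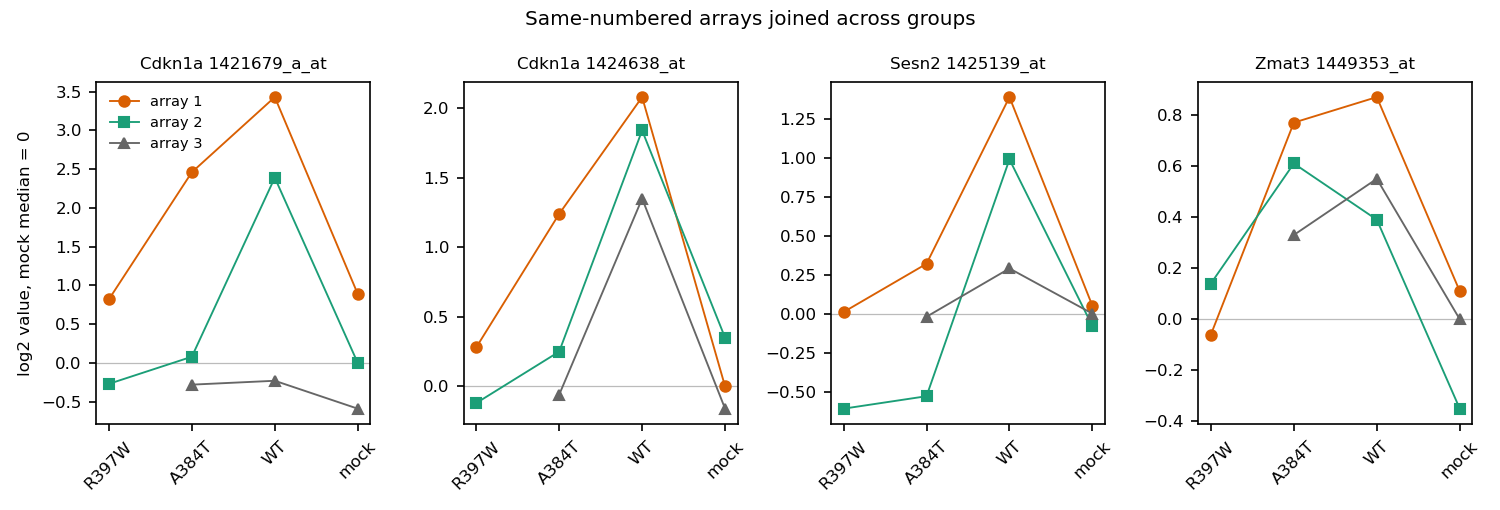
Log2 value (vertical axis, mock median = 0; scales differ between panels) of Cdkn1a, Sesn2 and Zmat3 with the arrays of the same number joined by lines across R397W, A384T, WT and mock. At Cdkn1a 1424638_at all 3 lines peak at WT, whereas at Cdkn1a 1421679_a_at the line of array 3 stays between -0.59 and -0.23.

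Arrays numbered 1 differed from the other arrays of their group at many genes. At 11% of all probe sets array 1 was the highest in every group, and at 10.1% the lowest. Among the 15 probe sets it was the highest in every group at 3, which were Cdkn1a 1421679_a_at, Sesn2 1425139_at and Mdm2 1423605_a_at, and the lowest at 2, Ccng1 1450016_at and Trp53inp1 1416927_at. The median of 19 measured cyclins, cyclin-dependent kinases and other cell cycle genes was 0.05 and -0.08 on the R397W arrays, 0.22, 0.06 and 0.06 on the A384T arrays, 0.17, 0.01 and 0.08 on the WT arrays and -0.03, 0 and 0 on the mock arrays. It was highest on array 1 within R397W, A384T and WT. Its part in the Cdkn1a values was not tested.

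Sesn2 encodes sestrin 2, a stress-induced inhibitor of the growth kinase complex mTORC1. At 1425139_at it was 0.01 and -0.61 on the R397W arrays, 0.32, -0.53 and -0.02 on the A384T arrays, 1.39, 0.99 and 0.29 on the WT arrays, and 0.05, -0.08 and 0 on the mock arrays. The WT arrays were all above the mock arrays, although WT array 3 lay close to them and below A384T array 1. The difference of WT from mock was 0.90 ± 0.29 (limma adjusted p = 0.171, blocked 0.0199), and it was 1.20 without WT 3 (adjusted p = 0.0477). At 1451599_at the WT arrays, at 0.30, 0.49 and 0.03, were also above the mock arrays, at 0.03, -0.17 and 0, by 0.32 ± 0.12 (adjusted p = 0.291, and 0.142 with the block). The lowest WT value there exceeded the highest mock value by less than the rounding of these values.

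Zmat3 encodes a zinc finger protein that binds RNA, and its means were 0.57 in A384T and 0.60 in WT cells. Its probe set was -0.06 and 0.14 on the R397W arrays, 0.77, 0.61 and 0.33 on the A384T arrays, 0.87, 0.39 and 0.55 on the WT arrays, and 0.11, -0.35 and 0 on the mock arrays. The A384T and WT arrays were all above the R397W and mock arrays. The difference of WT from mock was 0.69 ± 0.17 (limma adjusted p = 0.0642, blocked 0.0157, and 0.0399 when each gene was tested by the mean of its probe sets), and it was 0.76, 0.74 and 0.55 between arrays of the same number. Of the 4 genes with WT arrays above mock arrays, it was the least spread between numbers.

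Phlda3, which encodes a small pleckstrin homology protein that keeps the kinase AKT from the membrane, was -0.36 and -0.08 on the R397W arrays, 0.04, -0.23 and -0.13 on the A384T arrays, 0.26, 0.15 and 0.63 on the WT arrays, and 0, 0.10 and -0.17 on the mock arrays. All WT arrays were above all other arrays, by small margins. The difference of WT from mock was 0.37 ± 0.15 (adjusted p = 0.317, and 0.192 with the block).

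The remaining 9 probe sets, of 4 genes, held values between -0.64 and 0.62 on all arrays, both of them on A384T arrays at Trp53inp1 1416927_at. Mdm2, the ubiquitin ligase that restrains p53, had WT over mock differences of 0.07, 0.16 and -0.16 at its 3 probe sets, and no 95% interval there went beyond -0.52 or 0.51. Ccng1 encodes cyclin G1, which brings the phosphatase PP2A to Mdm2, and its window holds the other element shown above. Its 3 probe sets differed by 0.07, 0.16 and 0.05, with intervals inside -0.33 to 0.50. Trp53inp1, a stress-induced nuclear protein, differed by 0.12 and 0 at its 2 probe sets, and the wider interval was -0.73 to 0.74. Eda2r, the receptor for ectodysplasin A2, differed by -0.08 (-0.34 to 0.17) and was the least variable member. Changes of a size inside these intervals are not excluded with 3 arrays a group, and those intervals do not show that nothing changed. The intervals are not adjusted for the number of probe sets and give no limit of detection. At Zmat3 the WT over mock interval was 0.31 to 1.06, and the difference was not called (limma adjusted p = 0.0642).

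**Figure D3:**
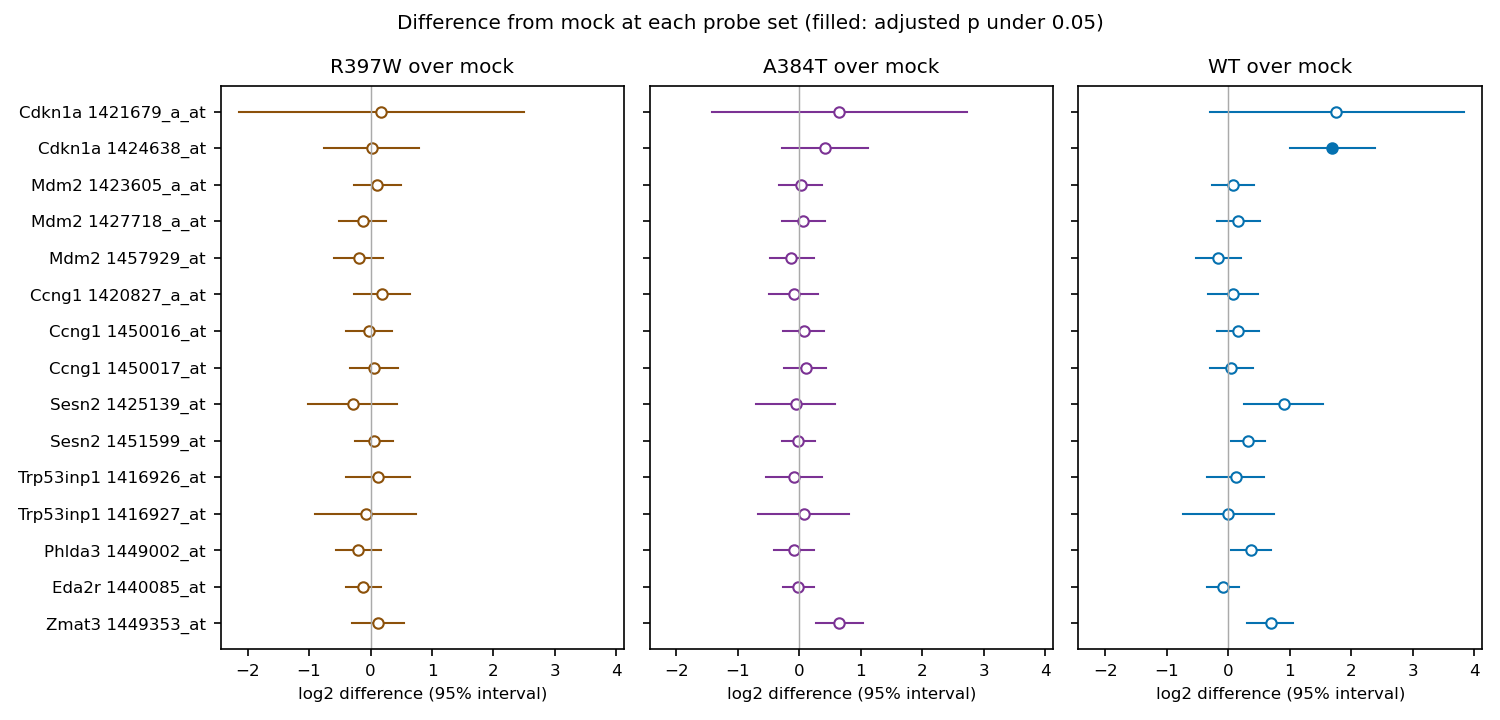
Log2 difference from mock (horizontal axis, points) with its 95% interval from limma (bars) at each of the 15 probe sets for R397W, A384T and WT; filled points had an adjusted p under 0.05. The 1 filled point is Cdkn1a 1424638_at in WT over mock, at 1.69.

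The A384T form was set against mock in the same way. None of the 15 probe sets was called (limma), where 2.7% of all probe sets were, and 1 had an unadjusted p under 0.05, against 12.5% of all. That 1 was Zmat3, at 0.65 ± 0.17 (adjusted p = 0.087), and its A384T arrays were the only ones wholly above mock, against 7.99% of all probe sets. Cdkn1a was 0.41 ± 0.31 above mock at 1424638_at (95% interval -0.28 to 1.11, adjusted p = 0.709) and 0.65 ± 0.93 at 1421679_a_at (-1.42 to 2.72). Between arrays of the same number, 1424638_at differed by 1.24, -0.10 and 0.10, so that A384T array 1 carried most of the difference. Sesn2 1425139_at was at -0.06 ± 0.29 (-0.71 to 0.58) and Phlda3 at -0.08 ± 0.15 (-0.41 to 0.24). The median over the 15 was 0.02. This comparison shares its mock arrays with that of WT over mock.

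The R397W form was set against mock with 2 arrays. None of the 15 probe sets was called by limma and 0 had an unadjusted p under 0.05, and of all probe sets 0% were called and 1.75% had an unadjusted p under 0.05. The differences ran from -0.29 at Sesn2 1425139_at to 0.18, with a median of 0.02. Cdkn1a 1424638_at differed by 0.02 ± 0.35 (-0.76 to 0.79), and Zmat3 by 0.12 ± 0.19 (-0.30 to 0.54). The R397W and mock arrays did not overlap at 1 probe set upward and 1 downward, against 6.43% and 5.36% of all probe sets.

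The mutant forms were then set against WT FoxP3 directly. In A384T over WT none of the 15 probe sets was called (limma), where 0.114% of all probe sets were. There were 4 with an unadjusted p under 0.05, all lower in A384T, against 2.04% of all probe sets that were lower at that p. They were Cdkn1a 1424638_at, both Sesn2 probe sets and Phlda3. The A384T arrays lay wholly below the WT arrays at 3 of the 15, against 3.66% of all. Among these was Sesn2 1451599_at, where A384T array 1 and WT array 3 were both 0.03 after rounding. Cdkn1a 1424638_at was lower by -1.28 ± 0.31 (adjusted p = 0.37). In the blocked fit, where 0.589% of all probe sets were called, it was called (adjusted p = 0.0191). Between arrays of the same number the difference was -0.84, -1.59 and -1.41. Sesn2 1425139_at was lower by -0.96 ± 0.29 (adjusted p = 0.626, and 0.0792 with the block), and Phlda3 by -0.45 ± 0.15 (adjusted p = 0.794, and 0.356 with the block). Zmat3 differed by -0.03 ± 0.17, with a 95% interval of -0.41 to 0.35, which does not show that the 2 forms act alike on it.

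In R397W over WT, 1 of the 15 probe sets fell and 0 rose, where 2.15% of all probe sets were called and 1.19% called lower. It was again Cdkn1a 1424638_at, which was 3.2-fold lower with R397W (-1.68 ± 0.35, limma adjusted p = 0.0369). The call was lost in 8 of the 11 fits that left out 1 array, with adjusted p between 0.0529 and 0.248 and a difference between -1.88 and -1.48. Those fits were without mock 1, mock 2, mock 3, WT 1, WT 2, A384T 2, R397W 1 or R397W 2. Sesn2 1425139_at was lower by -1.19 ± 0.32 (adjusted p = 0.117), and by -1.49 without WT 3 (adjusted p = 0.0364). Phlda3 was lower by -0.56 ± 0.16 (adjusted p = 0.153) and Zmat3 by -0.56 ± 0.19 (adjusted p = 0.246). R397W arrays lay wholly below the WT arrays at 5 of the 15 probe sets, against 11.1% of all. Among these was Sesn2 1451599_at, where R397W array 1 and WT array 3 were both 0.03 after rounding. This comparison shares its WT arrays with those above.

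In R397W over A384T none of the 15 was called (limma), against 1.83% of all probe sets, and Zmat3 was the 1 with an unadjusted p under 0.05, against 11% of all. It was -0.06 and 0.14 in R397W and 0.77, 0.61 and 0.33 in A384T, a difference of -0.53 ± 0.19 (adjusted p = 0.287). Cdkn1a 1424638_at differed by -0.40 ± 0.35 (95% interval -1.17 to 0.38).

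By the distance between profiles over all 11 arrays, each centred on its own mean, the genes nearest to Cdkn1a 1421679_a_at were Ikzf4, the Ikaros family factor Eos, Ccna2, cyclin A2, and Cdca3, a cell division gene. Their root mean square differences were 0.576, 0.619 and 0.634 on the log2 scale. All 3 had their highest value on WT array 1 (3.72, 3.83 and 2.93) and their next highest on A384T array 1 (3.53, 2.84 and 2.61). Nearest to Sesn2 1425139_at were the potassium channel gene Kcnh2, Trp53bp1, which encodes the DNA repair protein 53BP1, and Igf2bp3, an RNA-binding protein, at 0.214, 0.234 and 0.241. Their WT array 1 values were 0.90, 1.33 and 1.30.

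Other genes of the p53 pathway were taken from lists, and a gene was counted once if any of its probe sets was called. Of all genes, 2.54% were called higher and 2.19% lower in WT over mock, and 2.26% and 1.8% in A384T over mock. Among 20 measured genes listed as targets for growth arrest and feedback, Gadd45g and Sesn3 rose and 0 fell in both comparisons. Being in a list does not show that p53 acted on a gene here, which was not tested. The list's median was 0.14 in WT over mock and 0.18 in A384T over mock. In the blocked fit, 7 of the 20 were called higher in WT over mock, which added Gtse1, Sesn1, Ckap2, Sulf2 and Gadd45b, and 3 lower, Btg2, Ddit4 and Gadd45a (all named after their values were seen). With that block 6.44% of all genes were called higher and 5.78% lower. Among 17 apoptosis targets 0 were called in WT over mock, and in A384T over mock 0 rose and 1 fell, Bbc3. With the block, 1 of the 17 was called higher, Pmaip1, and 2 lower, Bbc3 and Apaf1, in WT over mock (Pmaip1 and Apaf1 named after their values were seen). Among 9 DNA repair targets 0 were called in either comparison, and 1 lower in WT over mock with the block, Gadd45a, which is in both lists. In R397W over mock 0 genes of any list were called.

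Gadd45g, a stress sensor of the GADD45 family, was -0.16 and -0.10 on the R397W arrays, 2.76, 1.58 and 1.44 on the A384T arrays, 2.48, 2.42 and 1.82 on the WT arrays, and 0, 0.36 and -0.66 on the mock arrays. It rose by 2.02 ± 0.36 with A384T (adjusted p = 0.0134, and 0.0546 without mock 3) and by 2.34 ± 0.36 with WT FoxP3 (adjusted p = 0.0054). Sesn3, the sestrin paralog that FoxO factors induce, was 0.15 and 0.05 on the R397W arrays, 1.06, 1.19 and 1.14 on the A384T arrays, 0.45, 0.50 and 0.67 on the WT arrays and -0.05, 0.02 and 0 on the mock arrays. Its groups were ordered differently from those of Sesn2: it was highest in A384T, by 1.14 ± 0.09 over mock (adjusted p = 0.000173), and rose by 0.55 ± 0.09 with WT FoxP3 (adjusted p = 0.00946). A384T over WT was 0.59 ± 0.09 (adjusted p = 0.0574, blocked 0.0233). These Sesn3 values are of 1449303_at. At another Sesn3 probe set, 1453313_at, A384T over mock was 1.24 ± 0.81 (limma adjusted p = 0.641, blocked 0.00162). That probe set was called in neither fit in WT over mock.

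Bbc3, the BH3-only death gene PUMA, was -0.26 and 0 on the R397W arrays, -1.32, -1.73 and -1.01 on the A384T arrays, -0.71, -1.38 and -0.69 on the WT arrays, and -0.19, 0 and 0.09 on the mock arrays. It fell by 1.32 with A384T (SE 0.22, adjusted p = 0.00929) and was at -0.89 ± 0.22 in WT over mock (adjusted p = 0.0574, blocked 0.0077). Bbc3 was lower on every A384T and WT array than on any R397W or mock array.

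Among 13 measured regulators of p53, Hipk2, a kinase that phosphorylates p53, rose with WT FoxP3 and 0 fell. It was 0.36 and 0.47 on the R397W arrays, -0.03, 0.42 and 0.20 on the A384T arrays, 1.44, 1.71 and 1.40 on the WT arrays and 0, -0.16 and 0.02 on the mock arrays. The difference was 1.57 ± 0.13 in WT over mock (adjusted p = 0.000167), and A384T was lower than WT by -1.32 ± 0.13 (adjusted p = 0.00612), where 0.11% of all genes were called lower. Of its other probe sets, 1456022_at was also called in WT over mock (1.43 ± 0.15) and in A384T over WT (-1.40 ± 0.15). Not called in WT over mock were 1424863_a_at (1.02, adjusted p = 0.233), 1425983_x_at (1.07, 0.0935) and 1429566_a_at (0.94, 0.0712), which the blocked fit called. In A384T over WT 1424863_a_at and 1425983_x_at were at -1.13 and -1.22 and were called only with the block (adjusted p = 0.742 and 0.342 without it). With the block, 2 of the 13 were called higher in WT over mock, Hipk2 and Trp53bp1. Called lower were 2, Ppp1r13b and Pml (both named after their values were seen). Of all genes, 6.44% were called higher there and 5.78% lower with the block. In A384T over WT the blocked fit called 2 of the 13 lower, Hipk2 and Trp53bp1. It called 0.589% of all probe sets there, in either direction, which is a share of probe sets and not of genes. Among 14 DNA damage kinases and sensors 0 were called in WT over mock or A384T over mock. In the blocked fit, 2 of the 14 were called higher in WT over mock, Mre11a and Chek1 (named after their values were seen), and 0 lower.

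Among 7 further inhibitors of cyclin-dependent kinases, Cdkn1c, which encodes p57, rose with WT FoxP3. It was -0.38 and -0.32 on the R397W arrays, 0.40, 0.27 and 0.30 on the A384T arrays, 0.61, 0.74 and 0.75 on the WT arrays and -0.08, 0.08 and 0 on the mock arrays. The WT difference from mock was 0.70 ± 0.09 (adjusted p = 0.00208), and R397W was lower than WT by -1.05 ± 0.10 (adjusted p = 0.000612). With the block, 2 of the 7 were called higher in WT over mock, Cdkn1c and Cdkn3 (the second named after its values were seen). The groups of Cdkn1c did not overlap with each other in any pair. Of all probe sets, 8.17% had WT arrays wholly above mock, and 3.66% had A384T arrays wholly below WT. Cdkn1c was not called in A384T over mock (0.32, limma adjusted p = 0.112), A384T over WT (-0.38, 0.361) or R397W over mock (-0.35).

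A further list held cyclins, cyclin-dependent kinases and other cell cycle genes. Among its 19 measured genes, Ccnd2 (cyclin D2) and Cdk6, its partner kinase, rose and 0 fell in WT over mock. Cdk6 rose by 0.94 ± 0.20 (adjusted p = 0.0302), a call lost without any 1 of mock 1, 2 or 3 or of WT 1 or 3 (adjusted p = 0.0525, 0.119, 0.0738, 0.11 and 0.0865). Ccnd2 rose by 0.77 ± 0.12 (1430127_a_at, adjusted p = 0.00744). Its probe sets 1416123_at (0.75, limma adjusted p = 0.0263) and 1448229_s_at (0.60, 0.0333) were also called. Not called without the block were 1416122_at (0.52, 0.158), 1416124_at (0.81, 0.0688), 1434745_at (0.57, 0.283) and 1455956_x_at (0.52, 0.414), which the blocked fit called. In A384T over mock Cdk6 rose by 1.15 ± 0.20 (adjusted p = 0.0114, and 0.0503, 0.0517 and 0.0545 without mock 2, A384T 1 and A384T 2), and 2 genes fell, the phosphatase gene Cdc25b (-1.79 ± 0.28, adjusted p = 0.00622) and E2f2, named after its values were seen (-0.52 ± 0.10, adjusted p = 0.0248). In the blocked fit, 6 of the 19 were called higher in WT over mock, which were Ccna2, Ccnb2, Ccnd2, Cdk1, Cdk6 and Mki67 (named after their values were seen), and 1 lower, Cdc25b (-1.16 ± 0.28, adjusted p = 0.0532, and 0.000525 with the block).

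**Figure D4:**
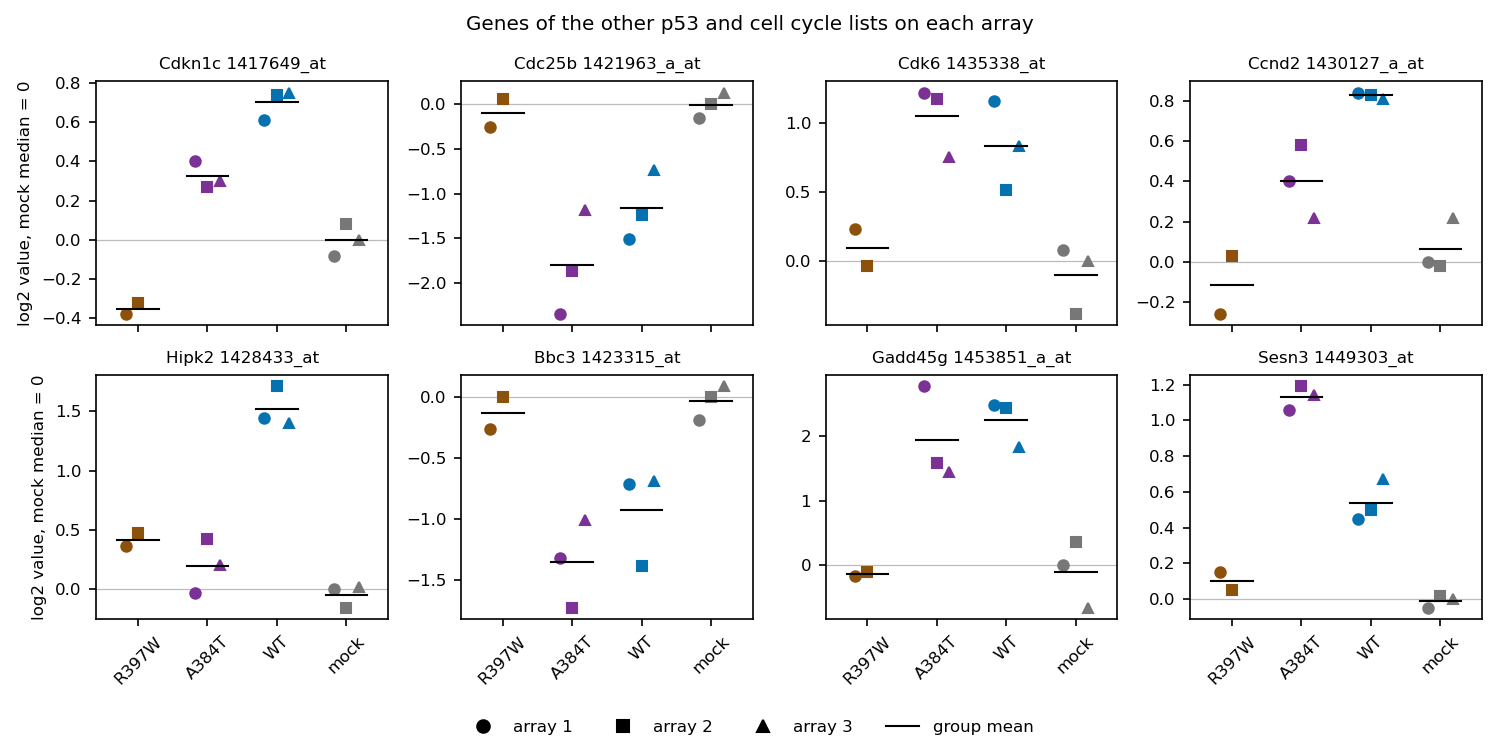
Log2 value on each array (vertical axis, mock median = 0; scales differ between panels) for 8 genes of the other p53 and cell cycle lists, by group from R397W to mock; symbols give the array number and lines the group mean. Hipk2 and Cdkn1c are highest on the WT arrays, Sesn3 on the A384T arrays, and Bbc3 and Cdc25b are lower on the A384T and WT arrays than on the mock arrays.

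The feeder cells had been irradiated, so markers of cells that they could bring were followed on the same arrays. The medians of the B cell, macrophage and dendritic cell, CD8 T and NK cell, and erythroid and platelet lists lay between -0.06 and 0.16 on the R397W arrays, -0.19 and 0.11 on the A384T arrays, -0.21 and 0.01 on the WT arrays and -0.02 and 0.05 on the mock arrays. The 1 gene of these lists called in WT over mock was Fcgr3, which was lower. In the blocked fit Ighm was called higher as well (0.70, adjusted p = 0.0537, blocked 0.0135) and Itga2b lower (-0.51, adjusted p = 0.0715, blocked 0.0241). In A384T over mock Ighm was called higher and Adgre1, Fcgr3 and Itga2b lower. Which of these markers the samples express at all cannot be read from centred values, and their part in the values above was not tested.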

How the data were processed

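Total RNA of sorted cells was hybridised to Affymetrix arrays. Per the submitters' processing notes the values are RMA values, with no version given. The deposited log2 values are centred so that the median of the 3 mock arrays is 0 at all 45101 probe sets; centring and log base are not stated, and base 2 was taken from the use of RMA. Of these probe sets, 34958 carry 1 gene symbol, 932 several and 9211 none, and 13 controls were left out.

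In limma 3.58.1 (R 4.3.3) 1 mean per group was fitted to all 11 arrays (7 residual degrees of freedom), with eBayes and Benjamini-Hochberg adjustment over the 34945 probe sets, and calls at an adjusted p under 0.05. The script was tested on simulated data. Named from each list were up to 3 called genes with the largest difference from mock, and for the 2 most variable member genes the 3 genes of nearest profile. Members and lists were chosen with earlier results of these data known.

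Array numbers are those of the sample titles. Deviations from group means of same-numbered arrays correlated at 0.504 to 0.672 for WT and mock and at 0.153 to 0.719 for A384T and WT. All were over 0.1, so values with the number as a block are given for these comparisons. Different-numbered arrays correlated at -0.422 to -0.044 for WT and mock, but at -0.609 to 0.284 for A384T and WT. A384T 2 was closer to WT 3 (0.284) than to WT 2 (0.153), so the pairing of A384T and WT is less certain. The number was fitted once, over all 4 groups. For A384T and mock 1 correlation was 0.086, and R397W has only 2 pairs. Other alternatives left out arrays, changed the prior, the groups fitted, the probe sets tested, the scaling and the filter. Promoters came from RefSeq (GRCm38.p6).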

Additional observations from a re-analysis of the deposited data

How the results depend on the processing

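With the array number as a replicate block, the number of the 15 probe sets called was 4 for WT over mock, 1 for A384T over mock (Zmat3, adjusted p = 0.021), 1 in A384T over WT and 3 in R397W over WT (Cdkn1a 1424638_at, adjusted p = 0.000807, Cdkn1a 1421679_a_at, 0.0145, and Sesn2 1425139_at, 0.00866). With that block 3026, 2923, 206 and 2238 of all 34945 probe sets were called in these comparisons, in that order. Deviations of same-numbered arrays correlated at 0.578, 0.086 and 0.302 for A384T and mock, and at 0.623 and 0.413 for R397W and WT. With 2 arrays, the R397W deviations mirror each other, so they say little about pairing. The labels do not say what arrays of the same number share. Leaving out 1 array at a time, the number called ran between 0 and 2 in WT over mock and between 0 and 2 in R397W over WT. In R397W over WT it was 0 without all arrays numbered 1, 0 with only the 2 groups in the fit, 0 with 1 probe set per gene and 0 with the mean of a gene's probe sets. In WT over mock it was 0 with 1 probe set per gene, because Cdkn1a was then read by 1421679_a_at. With the mean of a gene's probe sets it was 1 in WT over mock, but the gene called was Zmat3 (0.69, adjusted p = 0.0399) and not Cdkn1a (1.73, adjusted p = 0.169). The cause of the other changes was not tested. The robust prior, subtracted array medians and the filter on low SD changed no call among the 15, and no called difference changed sign under any alternative run. Over all probe sets, the block raised the calls to 3026, 2923, 206, 2238 and 2275 in WT over mock, A384T over mock, A384T over WT, R397W over WT and R397W over A384T, against 1121, 942, 40, 752 and 641 without it, and to 0 against 0 in R397W over mock. Without the arrays numbered 1 the 5 counts were 495, 354, 2, 186 and 117, with only the 2 groups 833, 531, 12, 326 and 161, and with 1 probe set per gene 659, 577, 31, 459 and 413. Leaving out 1 array at a time, they ran from 648 (without WT 1) to 1137, 587 (without A384T 1) to 849, 17 (without WT 1 or WT 2) to 32, 235 (without R397W 1) to 777 and 204 (without R397W 1) to 612. Counts fell by more than 1.5 times without any 1 mock array, WT 1 or WT 2 in WT over mock, without any 1 mock array, A384T 1 or A384T 2 in A384T over mock, and without any 1 WT array, A384T 2 or either R397W array in A384T over WT. They did so without either R397W array, WT 1 or WT 2 in R397W over WT, and without either R397W array, A384T 1 or A384T 2 in R397W over A384T. The shares of all probe sets called, beside which the counts of the 15 are given, move with these counts. Signal over background cannot be read from centred values.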
